A study of Oryza sativa with 8 samples.

Results

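The circadian clock genes LHY (Os08g0157600), PRR37 (Os07g0695100), PRR73 (Os03g0284100), PRR95 (Os09g0532400), PRR59 (Os11g0157600), PRR1 (Os02g0618200), GI (Os01g0182600) and ELF3 (Os06g0142600) were followed in shoots of rice seedlings on 8 Affymetrix rice arrays. The genes were chosen by locus identifier and not by their measured values, and every probe set that the platform annotation pairs with exactly 1 of the 8 loci was taken. This gave 13 of the 57381 probe sets, for 8 of 25727 loci with a probe set of their own. A probe set is the group of short probes that reports 1 transcript on such an array. Seeds germinated for 7 days, and the seedlings then grew for 10 days in Yoshida medium, a nutrient solution for rice, with nitrogen. They were then moved to Yoshida medium without nitrogen or with supplemented nitrogen. The varieties Prasanna and Varadan were each sampled in both media, which made 4 groups of 2 arrays: Prasanna without nitrogen, Prasanna with supplemented nitrogen, Varadan without nitrogen and Varadan with supplemented nitrogen. The tissue is labelled as shoot of 14 days, less than the sum of the stated growth periods. The time spent in the test media and the hour of harvest are not given in the sources used here. No source says that the 2 arrays of a group came from separate plants, so p-values measure only the spread between these arrays, which may be technical.

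The plant clock is a ring of transcription factors that repress each other in turn through the day. LHY (also called CCA1) is a MYB-related repressor whose transcript peaks around dawn, and the pseudo-response regulators (PRR) follow it and repress it, with PRR73 and PRR37 early in the day, PRR95 and PRR59 later and PRR1, the rice counterpart of Arabidopsis TOC1, towards dusk. GI and ELF3 belong to the later part of the day, and in Arabidopsis ELF3 forms the evening complex with ELF4 and LUX, the protein to which rice PCL1 is related. In rice the clock also sets flowering time, where PRR37 and ELF3 are known as heading date genes, and the LHY locus has been described as a link between nitrogen supply and heading.

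The signals are MAS5 values on the log2 scale, in which every array is scaled to 1 target. The median signal per array lay between 5.59 and 6.26. Tests were limited to probe sets whose mean log2 signal reached 4.48 (the 40th percentile), which 12 of the 13 clock probe sets did. The exception was a second probe set of LHY, which ran from -0.23 to 4.14. It is used only in the fits with no filter and in means over a gene's probe sets. The probe set with the highest mean stands for each gene. On their brightest probe sets, shoot markers were bright on every array, with 14.69 to 17.10 for the Rubisco small subunit locus Os12g0292400 and 15.80 to 17.33 for the light-harvesting locus Os01g0600900. The Rubisco activase locus Os11g0707000 ran from 13.41 to 17.17, lowest on the first no-nitrogen arrays (13.41 in Prasanna and 13.60 in Varadan). Of 3 root markers, the silicon transporter Lsi1 ran from 9.58 to 10.31, WOX11 from 5.17 to 7.52 and QHB from 4.75 to 6.48. In whole shoots, fewer cells of a type and less RNA per cell cannot be told apart.

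LHY gave the widest spread of the 8 genes. Its log2 signal was 7.97 on the first and 14.82 on the second array of Prasanna without nitrogen, and 14.69 and 15.01 on the arrays of Prasanna with supplemented nitrogen. The Varadan arrays gave 8.56 and 14.64 without nitrogen and 14.80 and 14.57 with it. The first no-nitrogen array of each variety was thus low, while the second lay among the supplemented arrays. The first array was lower than the second by 116-fold in Prasanna (log2 difference -6.85) and by 67.5-fold in Varadan (-6.08), against log2 differences of -0.32 and 0.24 between the supplemented replicates. Of 34316 tested probe sets, 8 had a first minus second difference as low as that of LHY or lower when averaged over the varieties, LHY included. No test is given between replicates of 1 group.

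**Figure D1:**
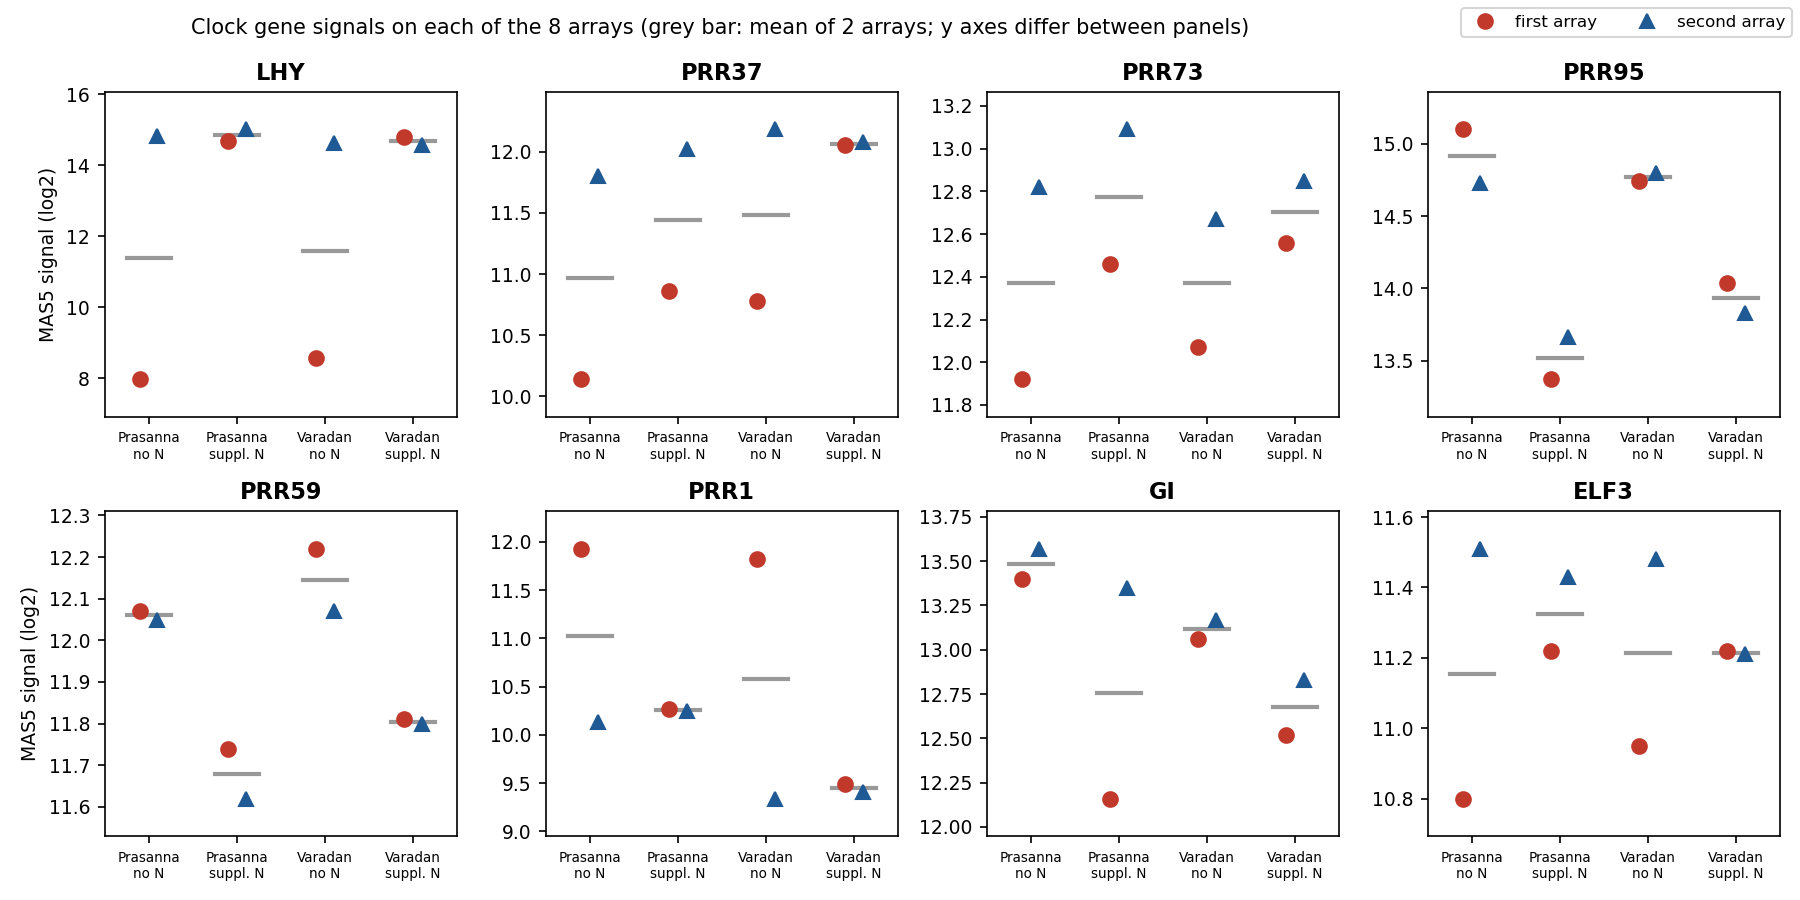
MAS5 signal (log2, vertical axis) of the 8 clock genes on each array, by variety and nitrogen level (horizontal axis), with circles for the first and triangles for the second array of a group and a grey bar for their mean. The first no-nitrogen arrays stand at 7.97 and 8.56 for LHY and at 11.93 and 11.82 for PRR1, apart from the other 6 arrays, while PRR95 is higher on all 4 no-nitrogen arrays than on the 4 supplemented ones. The vertical axes differ between panels.

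PRR1, the dusk member of its family, moved the other way between the same arrays. Its signal was 11.93 and 10.13 on the first and second array of Prasanna without nitrogen and 10.27 and 10.25 with supplemented nitrogen. The Varadan arrays gave 11.82 and 9.34 without nitrogen and 9.49 and 9.41 with it. The first no-nitrogen arrays were the highest of their variety, by 1.80 and 2.48 over their replicates, and the second no-nitrogen arrays were slightly below both supplemented arrays. The supplemented replicates differed by 0.02 and 0.08.

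PRR37 and PRR73, the early regulators of the family, were lowest on the first no-nitrogen arrays. PRR37 stood at 10.14 and 11.80 in Prasanna without nitrogen and at 10.86 and 12.02 with it, and at 10.78 and 12.18 against 12.05 and 12.08 in Varadan. The first array was also the lower one in supplemented Prasanna, by 1.15, so a gap between replicates of this gene is not limited to the no-nitrogen arrays. The second PRR37 probe set gave smaller differences between the no-nitrogen replicates, -0.67 in Prasanna and -1.15 in Varadan, against -1.66 and -1.40. PRR73 stood at 11.92 and 12.82 in Prasanna without nitrogen and 12.46 and 13.09 with it, and at 12.07 and 12.67 against 12.56 and 12.85 in Varadan. Its first arrays were the lower ones in all 4 groups, by 0.89 and 0.60 without nitrogen and by 0.63 and 0.29 with it.

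PRR95, PRR59 and GI did not share this split. PRR95 differed by 0.38 and -0.07 between the no-nitrogen replicates of Prasanna and Varadan, PRR59 by 0.02 and 0.14, and GI, which encodes a large protein of flowering and clock protein turnover, by -0.17 and -0.11. After quantile normalization the PRR95 value in Varadan was 0.27 instead. ELF3, represented by its brightest probe set, was lower on the first arrays by 0.70 and 0.53 without nitrogen, and differed by -0.22 and 0.01 with it. The dimmer ELF3 probe sets gave -0.28 and -0.31, and -0.75 and 0.14, so they did not share 1 size or sign.

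A difference of at least 1 on the log2 scale in the same direction in both varieties was seen for 3 of the 8 genes between the no-nitrogen replicates: LHY and PRR37 lower and PRR1 higher on the first array. Counted by clock probe set past the filter, it was 3 of 12 (2 lower and 1 higher). Among all tested probe sets, 7.81% were lower and 8.66% higher by this rule, 16.5% in all. Between the supplemented replicates 0 of the 8 clock genes and 0 of the 12 clock probe sets met the rule. The share of all tested probe sets was 4.10% (1.38% lower, 2.72% higher). In rice leaves LHY is known to be high around dawn and PRR1 towards dusk. GI, PRR95 and PRR59 differed by 0.38 or less between the first and second no-nitrogen arrays, while GI differed by -1.18 between the supplemented replicates of Prasanna. A ribosomal RNA control and the Rubisco activase marker also differed between the first and second no-nitrogen arrays, as given below. Whether the arrays differed in hour of harvest or clock phase was not tested, as the sources used here give no hour.

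**Figure D2:**
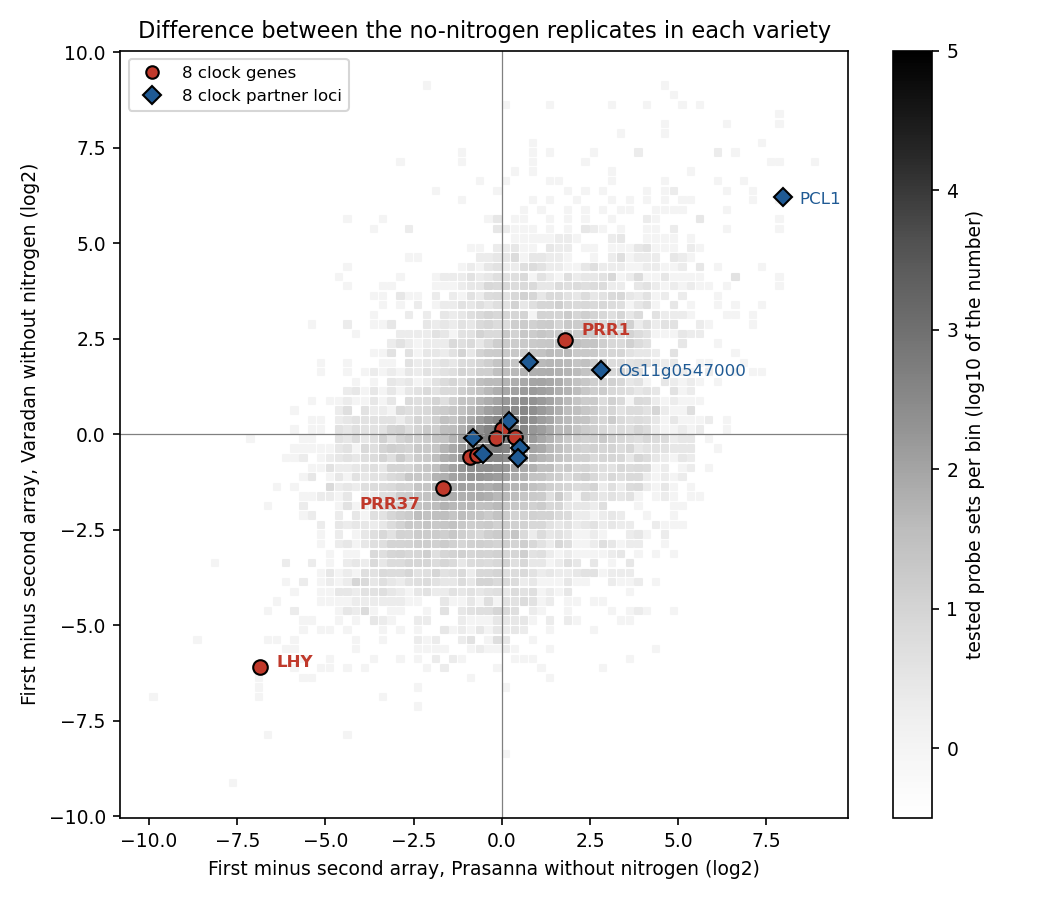
First minus second no-nitrogen array (log2) in Prasanna (horizontal axis) and Varadan (vertical axis), with all 34316 tested probe sets as grey bins (darker for more, log10 scale), the 8 clock genes as red circles and 8 clock partner loci as blue diamonds. LHY lies at -6.85 and -6.08 and PCL1 at 7.96 and 6.20, near the opposite ends of the cloud. PRR95, PRR59 and GI lie near 0, and PRR1, PRR37, PRR73 and ELF3 lie off 0 with 1 sign in both varieties. The PRR73 and ELF3 differences are smaller in size than the SD over all tested probe sets (1.40 in Prasanna, 1.43 in Varadan). The same holds for PRR37 in Varadan.

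Some control and marker values also differed between the first and second no-nitrogen arrays, and others did little. An 18S ribosomal RNA control stood at 15.49 (Prasanna) and 14.17 (Varadan) on the first no-nitrogen arrays and at 13.51 and 13.26 on the second ones. It stood at 12.85 to 14.18 on the supplemented arrays. Another 18S control stood at 15.91 and 14.82 on the first no-nitrogen arrays and at 13.60 and 13.16 on the second ones. Its supplemented arrays ran from 12.65 to 13.95. The 3′ minus 5′ difference of the cyclophilin control, a measure of RNA integrity, was 0.74 on the first no-nitrogen array of Prasanna and lay at 1.17 to 1.62 on the 6 arrays other than these first ones, with that of Varadan in between. The same difference for the Gapdh control was 2.79 and 2.77 on the first and second no-nitrogen arrays of Prasanna and 4.11 and 3.87 in Varadan, for actin 3.84 and 5.11 against 4.40 and 4.34, and for ubiquitin -0.01 and 0.28 against -0.12 and 0.12. A control for the ribosomal RNA of the large subunit gave 13.07 and 12.54 in Prasanna and 12.58 and 12.06 in Varadan on these arrays, against 13.07 to 14.00 on the supplemented ones. The Rubisco activase locus Os11g0707000 differed by -2.96 and -2.89 between the first and second no-nitrogen arrays. On their brightest probe sets the Rubisco small subunit locus differed by -0.62 and -0.46 and the light-harvesting locus by -0.12 and -0.85. The next brightest small subunit probe set gave -2.86 and -3.22, and the dimmer ones gave -0.38 and 0.32, and 0.50 and -1.12. A second light-harvesting probe set gave -0.80 and -1.60. The part of these in the clock values was not tested. The 3 root markers differed between the no-nitrogen replicates by -0.39 and -0.40 (Lsi1), -0.12 and -0.28 (QHB) and 0.91 and 1.79 (WOX11).

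The question of the study was the response to missing nitrogen in the 2 varieties. For no clock probe set did the nitrogen effect pass the threshold (limma, Benjamini-Hochberg adjusted p over all tested probe sets under 0.05): 0 of 12 were called in Prasanna, in Varadan or in the average over both, where 0% (0 of 34316), 0.00291% and 0.184% of all tested probe sets were called. At an unadjusted p under 0.05, 1 of the 12 was higher without nitrogen in each of these comparisons, PRR95 every time, against 6.63%, 8.93% and 13.4% of all tested probe sets in either direction. Over all tested probe sets the median average effect was -0.03.

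PRR95 came nearest. Its signal was 15.10 and 14.73 in Prasanna without nitrogen and 13.37 and 13.66 with supplemented nitrogen, and 14.74 and 14.80 against 14.04 and 13.83 in Varadan. All 4 no-nitrogen arrays were above all 4 supplemented ones. The average effect was 1.12 ± 0.19 (SE; 95% interval 0.67 to 1.56; limma adjusted p = 0.081), with 1.40 ± 0.27 in Prasanna (adjusted p = 0.284) and 0.83 ± 0.27 in Varadan (adjusted p = 0.461). It passed when both first no-nitrogen arrays were left out (1.04 ± 0.17, adjusted p = 0.0206) and when both second ones were (1.19 ± 0.17, adjusted p = 0.00407). In these fits 3.50% and 17.6% of all tested probe sets were called, and each lone no-nitrogen array is assumed to vary like the supplemented arrays, on 2 residual degrees of freedom.

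PRR59, the partner of PRR95 in the later part of the family's sequence, was 12.07 and 12.05 in Prasanna without nitrogen and 11.74 and 11.62 with it. Varadan arrays stood at 12.22 and 12.07 against 11.81 and 11.80. The groups did not overlap, but the difference was small, 0.36 ± 0.16 on average (95% interval -0.02 to 0.74; limma adjusted p = 0.395). GI stood at 13.40 and 13.57 without and 12.16 and 13.35 with supplemented nitrogen in Prasanna, and at 13.06 and 13.17 against 12.52 and 12.83 in Varadan. Its average effect was 0.59 ± 0.28 (95% interval -0.07 to 1.24; adjusted p = 0.413), and its value was 0.29 without the first supplemented Prasanna array. Within both varieties, the no-nitrogen arrays of 3 of the 8 genes, PRR95, PRR59 and GI, lay above the supplemented arrays without overlap, and those of 0 lay below. Counted by clock probe set past the filter, 3 of 12 lay above and 0 below. Of all tested probe sets, 7.52% lay above and 8.44% below in both varieties.

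For LHY and PRR1 the nitrogen effect depended on which no-nitrogen arrays were used. Without both second arrays, 3 clock genes passed in Prasanna (LHY, PRR1 and PRR95) and 2 in Varadan (LHY and PRR1), against 7.43% and 9.62% of all tested probe sets, and without both first arrays 0 passed within either variety, against 0.863% and 1.08%. With all arrays, LHY had an average effect of -3.27 ± 1.71 (95% interval -7.28 to 0.74; limma adjusted p = 0.445), a mean over replicates that lay far apart: the group means were 11.40 ± 4.85 (SD, n = 2) and 14.85 ± 0.23 in Prasanna and 11.60 ± 4.30 and 14.69 ± 0.17 in Varadan, without and with nitrogen. Without both first no-nitrogen arrays the average effect of LHY was -0.04, and without both second ones -6.50. PRR1 had 0.95 ± 0.59 with all arrays (95% interval -0.44 to 2.34; adjusted p = 0.511), -0.12 without both first and 2.02 without both second arrays. In the same fits PRR37 moved from -0.53 ± 0.48 (adjusted p = 0.649) to 0.24 and -1.29, and PRR73 from -0.37 ± 0.29 (adjusted p = 0.587) to 0.00 and -0.74. ELF3 stood at -0.08 ± 0.23 (95% interval -0.63 to 0.46; adjusted p = 0.895).

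**Figure D3:**
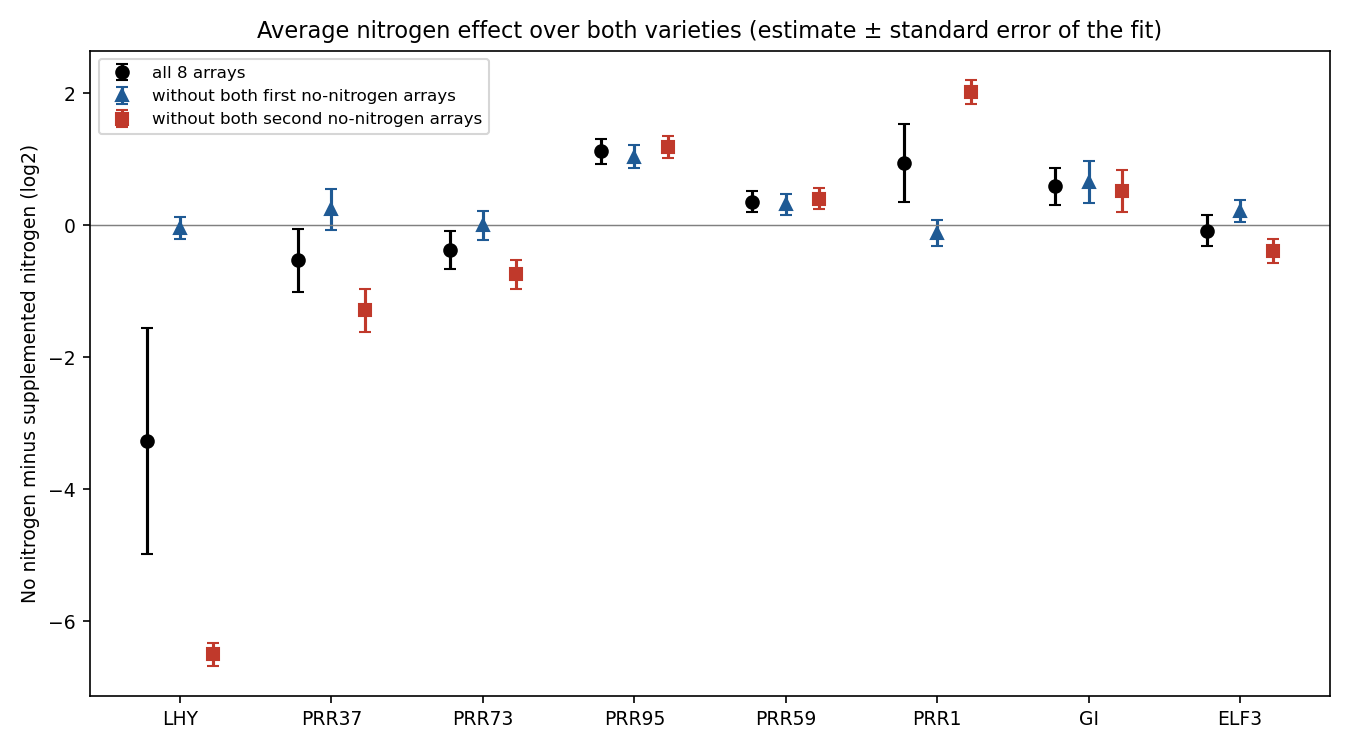
Average effect over both varieties, no nitrogen minus supplemented nitrogen (log2, vertical axis), for each clock gene with its standard error, from all arrays (black circles), without both first no-nitrogen arrays (blue triangles) and without both second ones (red squares). LHY runs from -0.04 to -6.50 and PRR1 from -0.12 to 2.02 with the arrays used, whereas PRR95 stays between 1.04 and 1.19.

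The varieties were compared within each medium. With supplemented nitrogen and without it, 0 of 12 clock probe sets passed between Varadan and Prasanna (limma), where 0.694% and 0.763% of all tested probe sets were called. At an unadjusted p under 0.05 the clock count was also 0 in both media, against 7.69% and 6.36%. The difference of the nitrogen effects between varieties was not called for any of the 12 either (0% of all tested probe sets called), nor at an unadjusted p under 0.05 (0 of 12, against 2.08%). For PRR1, the supplemented arrays and the second no-nitrogen array lay at 10.13 to 10.27 for Prasanna and at 9.34 to 9.49 for Varadan, without overlap. The first no-nitrogen arrays, set aside here for their values, stood at 11.93 and 11.82. The share of all tested probe sets that separate the varieties on the same arrays was not counted. With all arrays in the fit, Varadan minus Prasanna with supplemented nitrogen was -0.81 ± 0.84 for PRR1 (95% interval -2.78 to 1.16; limma adjusted p = 0.953), a standard error that takes in the spread of the no-nitrogen replicates. The same value was -0.81 ± 0.23 (adjusted p = 0.175) once the first no-nitrogen arrays were left out. In fits without both first or both second no-nitrogen arrays, 0 of 12 clock probe sets were called between the varieties either, against 2.15% and 1.82% of all tested probe sets with supplemented nitrogen and 1.02% and 0.833% without it. LHY differed by -0.17 ± 2.42 between the varieties with supplemented nitrogen (95% interval -5.84 to 5.50; adjusted p = 0.999), although the 4 supplemented arrays ran only from 14.57 to 15.01.

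Among 8 further clock loci, PCL1 (Os01g0971800), a MYB-type factor of the GARP class known as an evening clock gene, gave a split opposite to LHY and of like size. Its signal was 14.62 and 6.66 on the first and second array of Prasanna without nitrogen and 7.73 and 5.77 with it, and 13.71 and 7.51 against 7.61 and 7.84 in Varadan. Both first no-nitrogen arrays were high, and the other 6 arrays ran from 5.77 to 7.84. The first minus second differences were 7.96 and 6.20, against 1.97 and -0.22 between supplemented replicates, and 8 of 34316 tested probe sets were as high or higher on average, PCL1 included. Its average nitrogen effect was 3.38 ± 1.92 (limma adjusted p = 0.473).

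Os11g0547000 was next, at 11.81 and 8.99 in Prasanna without nitrogen and 7.81 and 8.15 with it, and at 11.23 and 9.55 against 8.61 and 8.50 in Varadan. All 4 no-nitrogen arrays were above the supplemented ones, and the first were the higher of each pair. The average effect was 2.13 ± 0.64 (adjusted p = 0.245). Os01g0566100 differed between the no-nitrogen replicates by 0.76 and 1.89 on its brighter probe set and by 2.30 and 2.07 on the other. Of the 8 loci, 0 passed for the average nitrogen effect (median 0.55), against 0.184% of all tested probe sets. By the rule of 1 on the log2 scale 2 were higher and 0 lower on the first arrays. The shares of all tested probe sets were 8.66% higher and 7.81% lower. Hd16, a casein kinase of heading date control, differed by -0.54 and -0.51.

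Of 9 loci for photoreceptors and light signalling, 0 passed for the average nitrogen effect (median -0.28), against 0.184% of all tested probe sets. By the same rule 2 were lower and 0 higher on the first no-nitrogen arrays. The shares of all tested probe sets were 7.81% lower and 8.66% higher. The 2 lower loci were Os02g0771100, with differences of -2.38 and -1.95, and Os02g0573200, with -1.41 and -1.78. Their supplemented replicates differed by at most 0.12. Os03g0782500 differed by -0.75 and -3.58. The phytochromes, the red light receptors of plants, moved less, with PHYA at -0.52 and 0.49, PHYB at 0.03 and 0.51 and PHYC at 0.25 and 0.75.

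Of 6 flowering loci that lie downstream of the clock in rice, 4 had a probe set of their own and 3 passed the filter. For the average effect 0 were called (median 0.25), against 0.184% of all tested probe sets. Hd1, the rice counterpart of Arabidopsis CONSTANS, differed by -0.50 and -0.50 between the no-nitrogen replicates and by 1.21 and -0.16 between the supplemented ones. The florigen gene Hd3a stood at 6.03, 1.48, 3.24 and 6.77 in Prasanna and at 5.45, 5.52, 3.27 and 5.28 in Varadan, with the no-nitrogen arrays first. These values of Hd3a fall on both sides of the filter level within 1 group. DTH8, a CCAAT-box binding subunit of heading date control, differed by 0.73 and -1.31 without nitrogen and by 0.08 and 0.02 with it. By the rule of 1 on the log2 scale, 0 loci of this list were lower and 0 higher on the first no-nitrogen arrays. The shares of all tested probe sets were 7.81% and 8.66%.

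**Figure D4:**
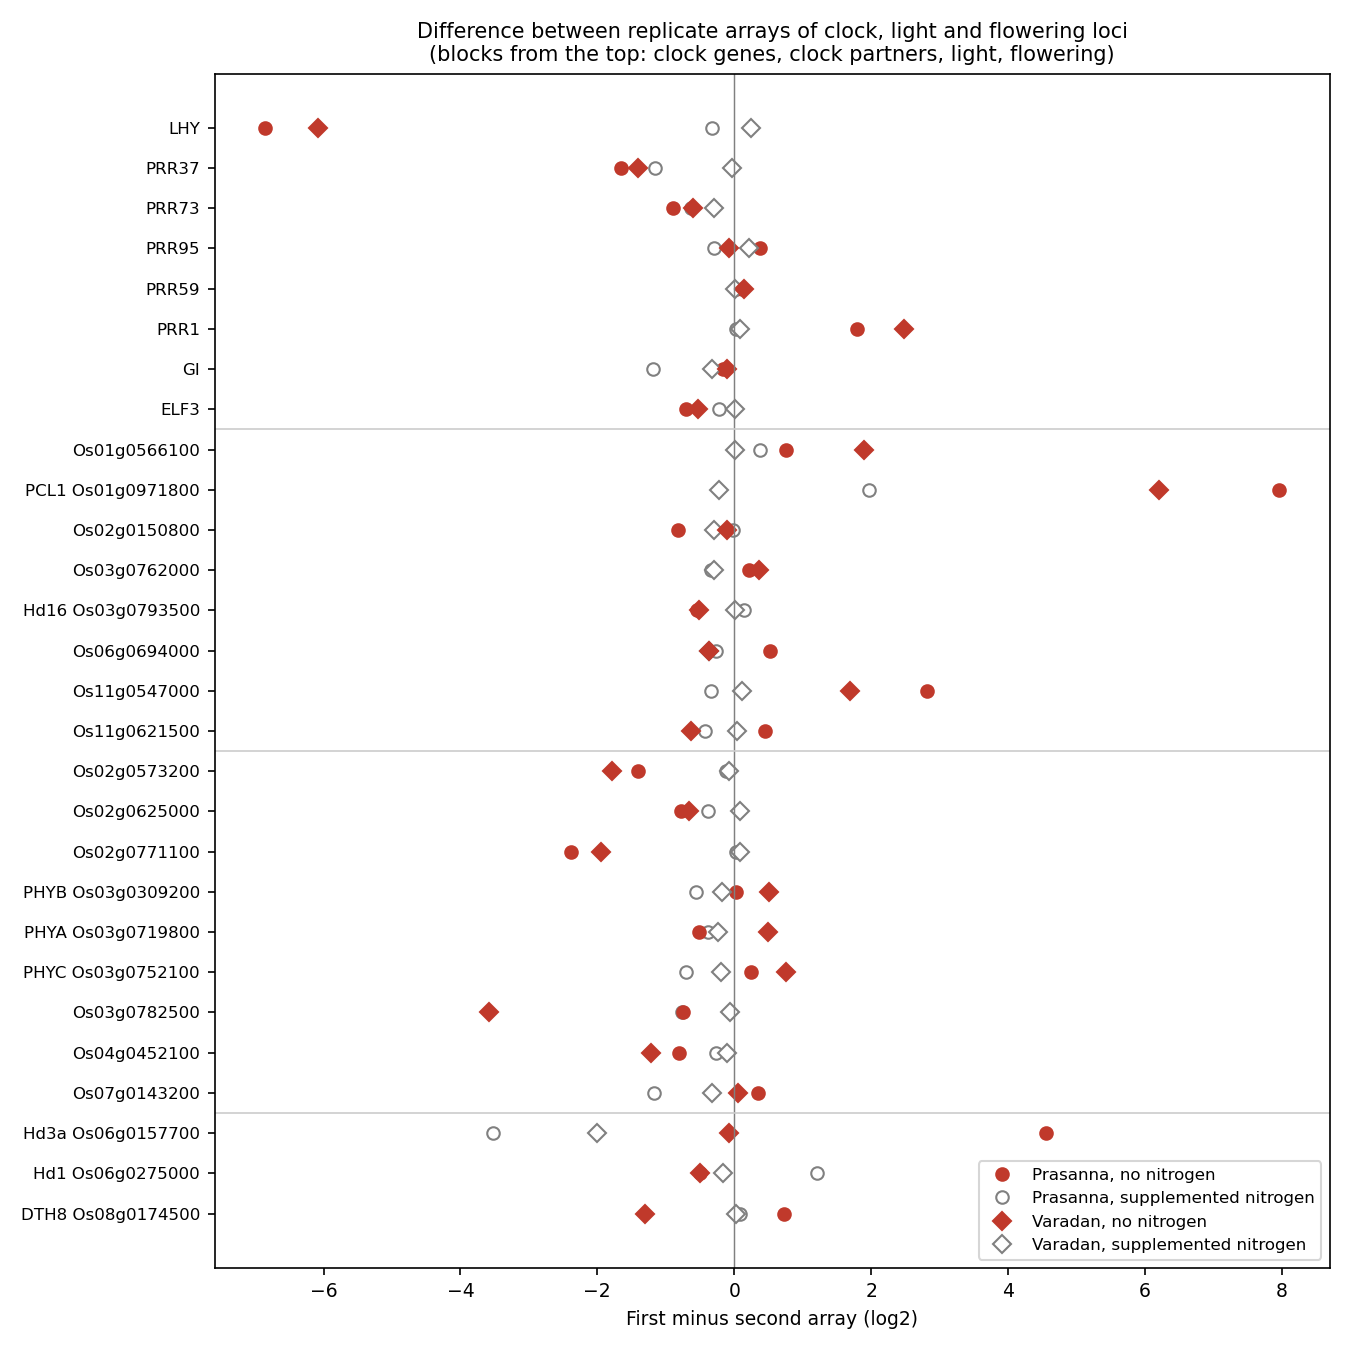
First minus second array (log2, horizontal axis) for the 8 clock genes and the tested loci of the clock partner, light and flowering lists, with filled symbols for the no-nitrogen and open symbols for the supplemented replicates (circles Prasanna, diamonds Varadan). LHY at -6.85 and -6.08 and PCL1 at 7.96 and 6.20 stand apart, and the scatter of Hd3a covers supplemented arrays as well.

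The loci whose signals most resembled LHY, GI and PRR1 over the 8 arrays were sought among 2340 loci with a name in the RefSeq table and at least median signal. For LHY they were OsC3H11, NIT4, MRS2-A, PSAG and KIN14L, with Pearson r from 0.994 to 0.997. For OsC3H11, NIT4 and MRS2-A the likeness rests on the first no-nitrogen arrays, since r over the other 6 arrays was -0.27, 0.12 and 0.25. Over the same 6 arrays r was 0.68 for PSAG and 0.86 for KIN14L. PSAG, a photosystem I subunit, was 9.48 and 12.73 in Prasanna without nitrogen and 9.97 and 12.85 in Varadan. For PRR1 they were PMM, HOX5, opda, PP2A4 and TUB6, at 0.963 to 0.994, and at 0.72 to 0.98 over the other 6 arrays. The homeobox gene HOX5 was 11.90 and 10.97 in Prasanna without nitrogen and 11.99 and 10.76 in Varadan. For GI they were MSI1, ARP7, CCAMK, ORR4 and XBOS35, at 0.900 to 0.984, and at 0.92 to 0.98 over the other 6. Arrays share scaling and replicate spread, so these values describe likeness over these 8 arrays only. The loci were picked by r over all 8 arrays, so r over 6 of them is not a separate check.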

How the data were processed

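MAS5 is the summary method named in the submitters' processing notes, without a version. The authors deposited log2 values. A second deposited table gives linear intensity values of the same signals, with a largest deviation of 3.0e-08 on the log2 scale. The trimmed mean (2% at each end) was 500.0 on every array. MAS5 gives dim probe sets a large spread, and scaling to 1 target removes changes shared by most transcripts. Scanner files were not used here, and the number of arrays limits the precision.

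Affymetrix control and reporter probe sets (187) were left out. In limma 3.58.1 under R 4.3.3, 1 coefficient per group was estimated for each of 34316 probe sets from the 8 arrays (lmFit, eBayes with trend, 4 residual degrees of freedom), with Benjamini-Hochberg adjustment over all tested probe sets within each comparison, a threshold of 0.05 and 2-sided tests. The fitting script was tested on simulated data. Names came from gene IDs and synonyms in a RefSeq table (assembly ASM3414082v1). PRR59 has no synonym there, and loci without a borne-out name are given by identifier. The files name no genome build, so no coordinates are given.

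All 8 members are named, with 3 loci per further list by the size of the averaged first minus second difference, and the 5 most alike loci for LHY, GI and PRR1. Some loci are named beyond these (Hd16, the phytochromes, markers), chosen after their values were seen. A further flowering locus, beyond the 6 counted, is not reported here. The members and lists were chosen with earlier results of these data known. Alternatives were the filter, quantile normalization, the variance prior, array weights, a replicate block, additive terms, the mean over a gene's probe sets, and arrays left out.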

Additional observations from a re-analysis of the deposited data

How the results depend on the processing

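The count of clock probe sets called was 0 in all 6 comparisons, and stayed 0 with no filter, a stricter filter, quantile normalization, no trend, array weights, the replicate block, additive terms (run for the average effect) and without any 1 array (0 to 0 over 8 such fits). Without both first no-nitrogen arrays 1 was called for the average effect (PRR95). Without both second ones 3 were called in Prasanna, 2 in Varadan and 4 for the average effect. In the same comparisons 7.43%, 9.62% and 17.6% of all 34316 tested probe sets were called without both second arrays. Without both first ones 3.50% were called for the average effect. Each no-nitrogen group held 1 array in these fits, so the clock counts are not read as particular to clock genes. The number of clock genes past 1 on the log2 scale between no-nitrogen replicates was 3 after quantile normalization and with probe sets averaged too. Signs turned without both first no-nitrogen arrays: PRR37 was 0.36 in Prasanna, 0.12 in Varadan and 0.24 on average, PRR73 0.04 in Prasanna and 0.00 on average, PRR1 -0.13, -0.11 and -0.12, and ELF3 0.18 in Prasanna and 0.22 on average. ELF3 in Varadan, at 0.00, was -0.26 without both second arrays, -0.05 after quantile normalization and -0.07 as the mean of its probe sets. Leaving out 1 array at a time also turned signs: the effects ran in Prasanna from -1.30 to 0.36 (PRR37), -0.86 to 0.04 (PRR73), -0.13 to 1.67 (PRR1) and -0.52 to 0.18 (ELF3), in Varadan from -1.29 to 0.12 (PRR37), -0.11 to 2.37 (PRR1) and -0.26 to 0.27 (ELF3), and on average from -0.26 to 0.09 (ELF3). None of these was past the threshold with all arrays. The adjusted p of PRR95 for the average effect ran from 0.0525 to 0.339 over the alternatives other than those 2. As the mean of its probe sets, LHY differed by -3.90 and -2.05 between the no-nitrogen replicates, since its dim probe set enters that mean. Replicate deviations correlated at 0.46 between the no-nitrogen groups of Prasanna and Varadan, and at -0.04 to 0.11 between the other pairs of groups. Arrays were not paired by replicate number in the main fit, and the replicate block was the alternative that did so. Over all tested probe sets, the 63 calls for the average effect became 150 with the replicate block, 1 without trend, 120 with array weights, 246 with additive terms, 0 to 84 without 1 array, and 1202 and 6036 without both first or both second arrays. Without these pairs the calls were 296 and 2551 in Prasanna (0 with all arrays) and 370 and 3302 in Varadan (1 with all arrays). Between varieties with supplemented nitrogen, 238 calls became 572 with array weights, 129 with the stricter filter, 739 and 626 without those pairs and 42 to 278 without 1 array. Without nitrogen, 262 became 173 with the stricter filter, 155 with array weights and 158 to 194 without 1 array. The cause of these changes beyond the arrays left out was not tested.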
